A study of Mus musculus with 18 samples.

Results

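The family of miR-15, miR-16 and miR-195 comprises microRNAs (miRNAs, short RNAs that guide silencing of mRNAs) from neighbouring and related hairpins, and 7 mature members were examined among the 1907 mature miRNAs of the count table. They were chosen by name: mmu-miR-15a-5p, mmu-miR-15b-5p, mmu-miR-15b-3p, mmu-miR-16-5p, mmu-miR-16-1-3p, mmu-miR-16-2-3p and mmu-miR-195a-5p (the mouse prefix mmu is left out below). They occupy 8 rows because miR-16-5p is listed once for each of its hairpins. The libraries come from NIH/3T3, an established mouse fibroblast line, and hold small RNA isolated as RNA of under 200 nt. It was sequenced either directly (input) or after an IP, an immunoprecipitation whose antibody recognises Ψ (pseudouridine, an isomer of uridine in RNA). In the study's IP method a gel step selects shorter RNA still before the antibody is added. Whether this step applied to the inputs is not stated. WT cells carried no knockdown, and the other cells had a knockdown of Pus1, which encodes a Ψ synthase, and were taken 3 days (KD3) or 6 days (KD6) later. Each of the 6 groups (WT, KD3 and KD6, each as input and as IP) held 3 libraries, A, B and C, 18 in all. The knockdown method is not given in the sources used here. No mock IP was analysed here, and the table covers only miRNAs, so neither the level of Pus1 nor fibroblast markers could be checked. Nothing in the labels says that A, B and C came from separate cultures, and p-values then measure only the spread between these libraries.

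A miRNA hairpin yields a 5p and a 3p arm, and usually one of them, the guide strand, is retained in an Argonaute protein while the other is degraded. Targets are recognised mainly through the seed, the bases 2 to 8 of the guide, so miRNAs with the same seed share many predicted targets. The 5p arms of this family are the usual guides and are known as repressors of cell cycle genes and of the anti-apoptotic gene BCL2. The human counterparts of mir-15a and mir-16-1 lie in a region often deleted in chronic lymphocytic leukaemia.

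All 7 members matched a mature sequence in RefSeq on GRCm38.p6, and the 5p arms are shown first because they share a seed (in capitals) but responded differently to the IP.
miR-16-5p: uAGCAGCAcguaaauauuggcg
miR-195a-5p: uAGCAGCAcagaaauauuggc
miR-15a-5p: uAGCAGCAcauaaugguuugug
miR-15b-5p: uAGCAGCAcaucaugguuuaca
The seed is carried by 10 mouse miRNAs of that RefSeq set, and the first difference among these 4 arms falls at position 10, counted from 1 at the 5′ end. miR-195a-5p differs from miR-16-5p at 2 of the 21 positions they share (G10A and U11G, with the base of miR-16-5p first). miR-15a-5p differs from it at 6 of 22 positions and miR-15b-5p at 8 of 22. Uridines, the bases that can become Ψ, number 5 in miR-16-5p, 4 in miR-195a-5p, 7 in miR-15a-5p and 6 in miR-15b-5p.

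The 3p members are shown because they tell apart the hairpins that share a 5p arm or supply the partner strand of one. Their seeds (in capitals) are each carried by 1 miRNA of the set.
miR-16-1-3p: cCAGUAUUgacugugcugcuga
miR-16-2-3p: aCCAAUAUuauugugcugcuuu
miR-15b-3p: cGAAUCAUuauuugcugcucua
They hold 7, 10 and 9 uridines, respectively.

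The hairpins form pairs in the GENCODE M21 annotation of GRCm38. Mir15a (chr14:61632027-61632110, minus strand) and Mir16-1 (chr14:61631880-61631972) are separated by 54 bases inside the long noncoding gene Dleu2. Mir15b (chr3:69009772-69009835, plus strand) and Mir16-2 (chr3:69009902-69009996) are separated by 66 bases inside Smc4, which encodes a condensin subunit. Mir195a (chr11:70235042-70235135, plus strand) lies 241 bases from Mir497, which yields another miRNA with the same seed.

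Libraries held 3989031 to 15099781 mapped reads, except for input A of KD6 with 241109. Reads outside miRNA rows made up 5.47% to 9.96% of mapped reads in the inputs and 14.8% to 38.2% in the IPs, and the part of this difference in the results below was not tested. Levels are given as CPM, estimated counts per 1000000 after scaling by median-ratio library sizes. They were not divided by length, because all members are 21 or 22 nt long. How well each sequence was recovered into a library was not measured, so orders and shares of members describe reads. Since cultures were sequenced in bulk, fewer cells with a miRNA and less of it per cell cannot be told apart.

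The 7 members together held 97494.8 estimated counts over the 18 libraries. Their summed share of the reads in miRNA rows was 0.0797% ± 0.0060 (SD, n = 3) for WT input and 0.0908% ± 0.0018 for WT IP. The summed share was 0.0602% ± 0.0048 in KD3 input, 0.0851% ± 0.0367 in KD3 IP, 0.0955% ± 0.0659 in KD6 input and 0.0488% ± 0.0223 in KD6 IP. The family was thus a minor part of the miRNA pool in every group. In the KD6 input only 80 counts stood behind library A, against 13847 in library C, and the wide spread of that group runs through the results that use it.

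miR-16-5p held the most reads, with 62.4% of all counts of the family, followed by miR-15b-5p with 15.3% and miR-16-1-3p with 10.6%. miR-15b-3p held 5.91%, miR-195a-5p 3.31%, miR-15a-5p 1.79% and miR-16-2-3p 0.609%. In WT input the mean levels fell in the order miR-16-5p (341 CPM ± 42.5), miR-15b-5p (149 ± 5.14), miR-16-1-3p (125 ± 6.81), miR-15b-3p (42.4 ± 3.52), miR-195a-5p (22.8 ± 3.61), miR-15a-5p (14.6 ± 5.07) and miR-16-2-3p (3.64 ± 0.89), each SD over n = 3. Only miR-195a-5p and miR-15a-5p overlapped among the neighbours of that order. In WT IP the order was different: miR-16-5p (728 CPM ± 61.1) was followed by miR-15b-3p (55.8 ± 6.13) and miR-15b-5p (55.3 ± 4.19), whose libraries overlapped, then by miR-195a-5p (30.3 ± 2.75), miR-16-2-3p (6.73 ± 1.66), miR-16-1-3p (3.87 ± 2.42) and miR-15a-5p (1.90 ± 0.55). The libraries of the last 3 overlapped between neighbours, except that those of miR-16-2-3p all lay above those of miR-15a-5p.

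**Figure D1:**
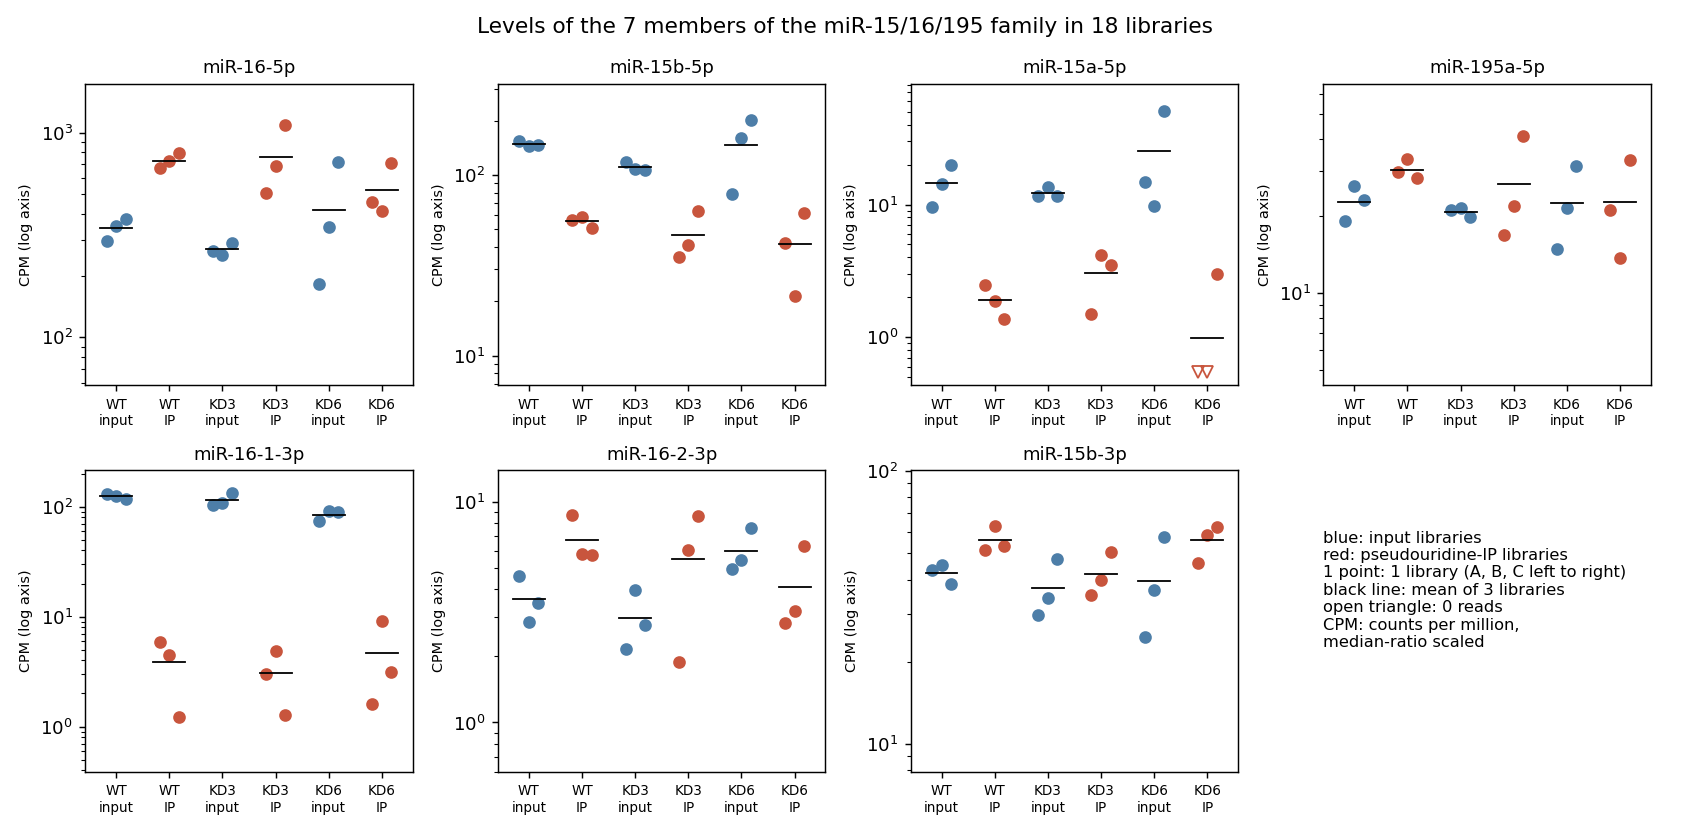
Level of each member (CPM, log axis) in the 18 libraries, with inputs in blue, IPs in red, a black line at the mean of 3 libraries and open triangles for libraries with 0 reads. miR-16-5p lies higher in the IPs of WT and KD3, while miR-15a-5p, miR-15b-5p and miR-16-1-3p lie lower in the IP than in the input in all 3 conditions.

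The make-up of the family differed between input and IP in every condition. miR-16-5p took 44.8% to 52.0% of the reads of the 7 members in WT input, 46.6% to 48.0% in KD3 input and 46.3% to 62.2% in KD6 input. In the IPs it took 81.2% to 84.9% in WT, 84.4% to 86.6% in KD3 and 79.6% to 80.7% in KD6. No IP library overlapped with an input library in this share. The reverse held for miR-16-1-3p, the 3p arm of mir-16-1, which took 7.70% to 21.8% in the inputs and 0.102% to 1.79% in the IPs.

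**Figure D2:**
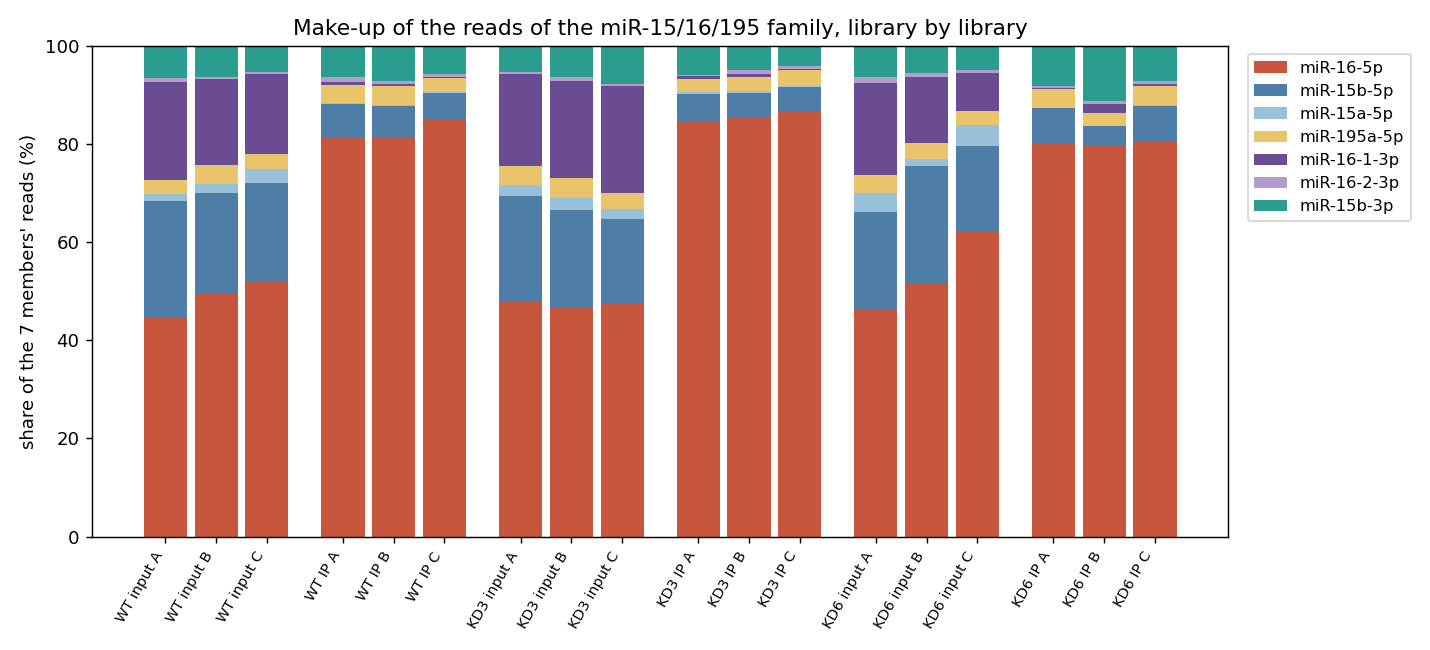
Share of each member (percent) in the summed reads of the 7 members, 1 bar per library. miR-16-5p fills 44.8% to 62.2% of the input bars and 79.6% to 86.6% of the IP bars, and miR-16-1-3p almost disappears from the IP bars.

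Each member was next compared between IP and input, which asks which miRNAs the Ψ antibody recovered more or less of than the rest. In WT cells 1 member rose and 3 fell among the 7, all 7 of which passed the abundance filter, by edgeR's quasi-likelihood test with Benjamini-Hochberg adjustment over 550 miRNAs. That test called 68.9% of all 550 miRNAs, 31.5% as higher and 37.5% as lower in the IP, so 4 of 7 was no more than the background. The median log2 ratio of the 7 members was 0.40, against -0.04 over all miRNAs tested. The 3 libraries of IP and input did not overlap for any of the 7 members, as was the case for 76% of all miRNAs.

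miR-16-5p stood at 294, 350 and 378 CPM in the WT inputs and at 670, 722 and 792 CPM in the WT IPs. All IP libraries were above all inputs, and the level rose 2.14-fold (log2 ratio 1.10 ± 0.33 SE, edgeR adjusted p = 0.00541). This call depended on the scaling. It was lost with TMM factors (0.79, adjusted p = 0.0772), with library sizes without factors (0.94, adjusted p = 0.0574) and with total mapped reads (0.76, adjusted p = 0.105). These scalings moved the median of all miRNAs to -0.35, -0.19 and -0.38, and the direction was the same in each. miR-16-5p is also one of the miRNAs that the study plotted singly over WT and both knockdown times. Those plots used these same libraries, so its rise here is not independent evidence.

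miR-15b-5p, which shares the seed of miR-16-5p, changed in the other direction, from 155, 145 and 146 CPM in the WT inputs to 56.3, 58.9 and 50.7 CPM in the IPs. The groups lay far apart, and the level fell by 1.43 ± 0.30 on the log2 scale (edgeR adjusted p = 0.000259). miR-15a-5p had 9.66, 14.3 and 19.8 CPM in the WT inputs and 2.47, 1.86 and 1.36 CPM in the IPs, the latter from 10, 10 and 9 counts. It fell by 2.97 ± 0.62 on the log2 scale (edgeR adjusted p = 0.000254). Members with one seed were thus called in opposite directions.

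miR-16-1-3p showed the lowest ratio of the family. Its WT inputs stood at 131, 124 and 118 CPM and its WT IPs at 5.93, 4.47 and 1.21 CPM, from 24, 24.5 and 8.2 counts. This was a 33.6-fold difference (log2 ratio -5.07 ± 0.45, edgeR adjusted p = 2.85e-09), and 4.91% of the tested miRNAs had a ratio as low or lower.

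The other 3 members did not pass the threshold in WT. miR-15b-3p, the partner strand of miR-15b-5p, stood at 43.5, 45.2 and 38.5 CPM in the inputs and 51.4, 62.8 and 53.3 CPM in the IPs (log2 ratio 0.40 ± 0.24, edgeR adjusted p = 0.147). miR-195a-5p stood at 19.0, 26.3 and 23 CPM and at 29.6, 33.4 and 28.0 CPM (0.41 ± 0.31, adjusted p = 0.233). miR-16-2-3p, the 3p arm of mir-16-2, had 4.59, 2.84 and 3.48 CPM in the inputs and 8.65, 5.78 and 5.75 CPM in the IPs (0.88 ± 0.42, adjusted p = 0.0694). All of these had every IP library above every input, but with upper-quartile factors, which moved the median of all miRNAs to 0.37, all 7 members passed.

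In KD3 cells the same 4 members were called as in WT, miR-16-5p as higher and miR-15a-5p, miR-15b-5p and miR-16-1-3p as lower, where the test called 70.5% of all miRNAs (34.4% higher and 36.2% lower). miR-16-5p stood at 265, 253 and 290 CPM in the inputs and 509, 684 and 1084 CPM in the IPs. IP C was highest by a wide margin, and the log2 ratio was 1.5 ± 0.33 (edgeR adjusted p = 0.000438, and 0.90 with adjusted p = 0.0548 on total mapped reads). The median of the 7 was 0.18, against -0.03 over all miRNAs.

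The 3 members that fell had every KD3 IP below every KD3 input, where 75.5% of all miRNAs did not overlap. miR-15b-5p went from 119, 108 and 107 CPM to 35.1, 41.1 and 63.6 CPM (log2 ratio -1.24 ± 0.30, edgeR adjusted p = 0.00107). miR-15a-5p went from 11.7, 13.5 and 11.5 CPM to 1.5, 4.14 and 3.50 CPM (-1.97 ± 0.61, adjusted p = 0.00702). miR-16-1-3p went from 103, 108 and 134 CPM to 2.99, 4.90 and 1.27 CPM (-5.40 ± 0.49, adjusted p = 3.29e-09). The IPs of the last 2 rested on 4 to 22 and 8 to 13 counts. miR-15b-3p (0.18 ± 0.25), miR-16-2-3p (0.96 ± 0.44) and miR-195a-5p (0.38 ± 0.31) overlapped between IP and input and did not pass. With upper-quartile factors all 3 passed (adjusted p = 0.0262, 0.0078 and 0.0191), and on total mapped reads miR-15b-3p (-0.41) and miR-195a-5p (-0.22) turned negative, with medians of all miRNAs of 0.43 and -0.61.

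In KD6 cells 3 of 7 members were called, all lower, where the test called 71.3% of all miRNAs, 35.8% as higher and 35.5% as lower. The median of the 7 was -0.56, against -0.0044 over all miRNAs. miR-15b-5p went from 79.0, 159 and 201 CPM to 42.1, 21.5 and 61.3 CPM (log2 ratio -1.88 ± 0.31, edgeR adjusted p = 1.66e-05). miR-16-1-3p went from 74.1, 90.6 and 89.1 CPM to 1.62, 9.14 and 3.16 CPM (-4.33 ± 0.47, adjusted p = 4.45e-08). miR-15a-5p had 14.8, 9.68 and 51.0 CPM in the inputs, but 0 counts in IP A and IP B and 16 counts (2.97 CPM) in IP C (-4.30 ± 0.70, adjusted p = 1.31e-05). The size of this fitted value is uncertain, as it was -2.85 without input C (adjusted p = 0.00104) and rested on zeros only without IP C, though the call held in both. IP and input did not overlap for these 3 members, against 59.3% of all miRNAs without overlap. A count of 0 there allows up to 3 counts, or up to 0.0000741% and 0.0000979% of the miRNA reads of IP A and B.

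miR-16-5p was not called in KD6, where its input libraries spread most. They stood at 183, 346 and 720 CPM, and the IPs at 458, 413 and 707 CPM, so that input C lay above every IP. The log2 ratio was 0.28 ± 0.33 (edgeR adjusted p = 0.453). Input A, the shallow library, held 37 counts of miR-16-5p. Without it the ratio was -0.47 (adjusted p = 0.16), and without input C it was 0.92 (adjusted p = 0.0115), so that the direction depended on single input libraries. It also depended on the scaling, with -0.019 for TMM factors, -0.52 for library sizes without factors and -0.85 for total mapped reads, while upper-quartile factors gave 0.77 (adjusted p = 0.0322). The median of all miRNAs moved with these scalings, to -0.35, -0.81, -1.16 and 0.50. The calls of the 3 lower members held without input A (log2 ratios -2.55 for miR-15b-5p, -4.85 for miR-15a-5p and -4.83 for miR-16-1-3p, adjusted p up to 3.12e-06). miR-15b-3p (0.35 ± 0.26), miR-16-2-3p (-0.56 ± 0.48) and miR-195a-5p (-0.12 ± 0.34) did not pass, and of these miR-15b-3p passed without input C (0.72, adjusted p = 0.0438).

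**Figure D3:**
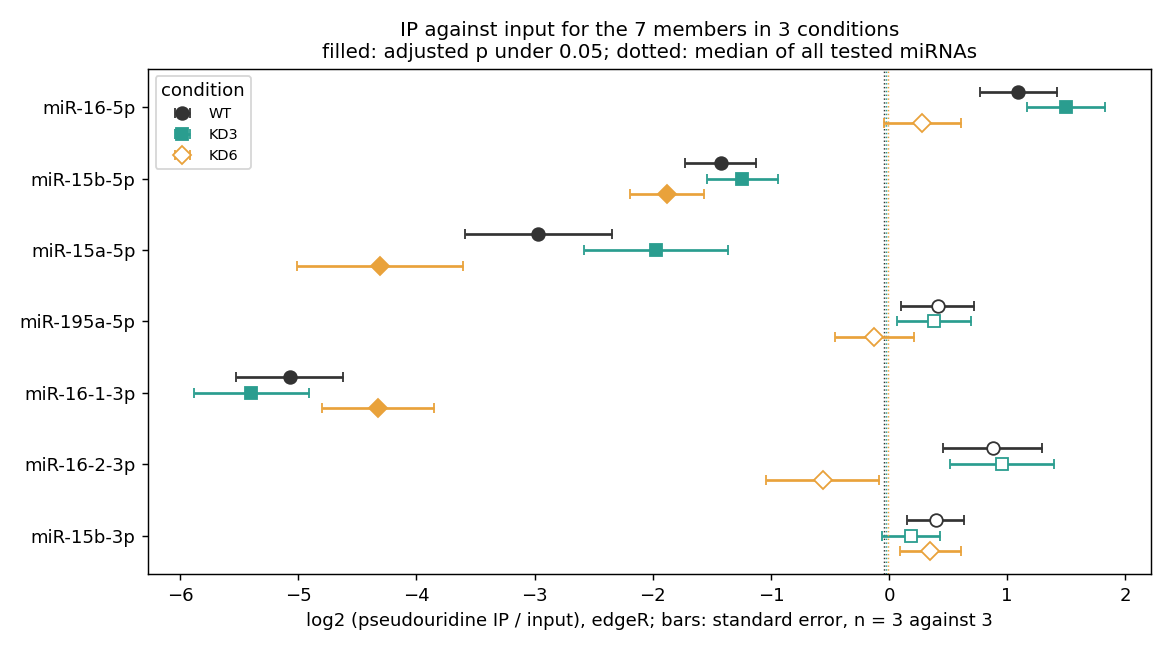
Log2 ratio of IP to input for each member in WT (circles), KD3 (squares) and KD6 (diamonds), with standard errors from edgeR over 3 against 3 libraries. Filled symbols passed an adjusted p of 0.05, and dotted lines mark the medians of all tested miRNAs. miR-15b-5p, miR-15a-5p and miR-16-1-3p are filled on the left in all conditions, whereas miR-16-5p is filled on the right in WT (1.10) and KD3 (1.5) only.

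The hairpins that give miR-16-5p could not be told apart from its own reads. The mir-16-1 row held 49.4% to 50.5% of the counts in 17 libraries and 47.3% in input A of KD6, and the rows differed by at most 49 counts. Summed over the libraries they held 30498.6 and 30352.6 counts. Reads that match both loci were divided between them before deposit, so these rows are not separate measurements. Tested row by row, the WT ratios were 1.08 for both rows.

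The 3p arms do differ between these hairpins, and their proportions changed in the IP. In the inputs miR-16-1-3p made up 97.2% ± 0.56 (SD, n = 3) of the reads of both 3p arms in WT, 97.5% ± 0.88 in KD3 and 93.4% ± 1.12 in KD6. In the IPs it made up 34.2% ± 14.3, 39.8% ± 24.7 and 48.0% ± 22.9. The ratio of miR-16-1-3p to miR-16-2-3p within a library, which needs no scaling, was 39.5-fold lower in the IP over the 3 conditions (two-sided exact permutation test within conditions, p = 0.00025, the smallest that its 8000 permutations can give, adjusted p = 0.00035 over 7 ratios). All 9 IP libraries lay below all 9 inputs. IP counts were small, at most 24.5 for miR-16-1-3p and 53.5 for miR-16-2-3p.

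The other 6 ratios compared members with the same seed or from one hairpin in the same way. Pairs of other miRNAs were not compared, so no share stands beside these results. As edgeR called 68.9% to 71.3% of all miRNAs between IP and input, the ratios are not shown to be particular to the family. Relative to miR-16-5p, miR-15a-5p was lower in the IP (mean difference of log2 ratios -4.41, exact permutation p = 0.00025, adjusted p = 0.00035), with no overlap between the 9 IP and 9 input libraries. In WT this ratio stood between -4.92 and -4.25 in the inputs and between -9.10 and -8.01 in the IPs. The difference was -3.95 in WT, -3.48 in KD3 and -5.81 in KD6, the last resting on IP libraries with 0 counts to which 0.5 was added.

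miR-15b-5p was 5.80-fold lower relative to miR-16-5p in the IP (log2 -2.54, exact permutation p = 0.00025, adjusted p = 0.00035), again without overlap. The conditions gave similar values, with log2 differences of -2.53 in WT, -2.72 in KD3 and -2.36 in KD6. miR-195a-5p, the arm closest in sequence to miR-16-5p, was 1.76-fold lower relative to it (log2 -0.81, exact permutation p = 0.00075, adjusted p = 0.000875). Its IP and input libraries separated in WT and KD3 but overlapped in KD6.

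Between the arms of mir-15b, the 5p share of reads was 77.8% ± 1.48 (SD, n = 3) in WT input and 49.8% ± 2.15 in WT IP. It was 75.0% ± 5.41 and 52.1% ± 3.22 in KD3, and 78.4% ± 2.62 and 41.4% ± 12.5 in KD6. IP B of KD6 was lowest at 26.9% (Wilson 95% interval 21% to 34.1%, counting error only). The ratio of the arms was 3.71-fold lower in the IP (log2 -1.89, exact permutation p = 0.00025, adjusted p = 0.00035). The 5p arm outnumbered the 3p arm in all 9 inputs, whereas it held between 47.6% and 55.7% of the reads in the other 8 IPs.

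For mir-16-1 the arms moved apart further. miR-16-5p outnumbered miR-16-1-3p 2.72-fold in WT input and 218-fold in WT IP as geometric means, and the difference over all conditions was 65.3-fold (log2 6.03, exact permutation p = 0.00025, adjusted p = 0.00035). The miR-16-5p reads in this ratio come from both hairpins. Against miR-16-2-3p the rise of miR-16-5p was 1.65-fold (log2 0.72, exact permutation p = 0.0158, adjusted p = 0.0158), with IP and input overlapping in WT and KD3. The log2 difference was 0.20 in WT, 0.71 in KD3 and 1.26 in KD6, where input A held 1 count of miR-16-2-3p. Without that library the difference over the conditions was 0.55 (exact permutation p = 0.02625). Within a single condition no ratio could go below an exact p of 0.1, which 3 against 3 libraries allow.

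**Figure D4:**
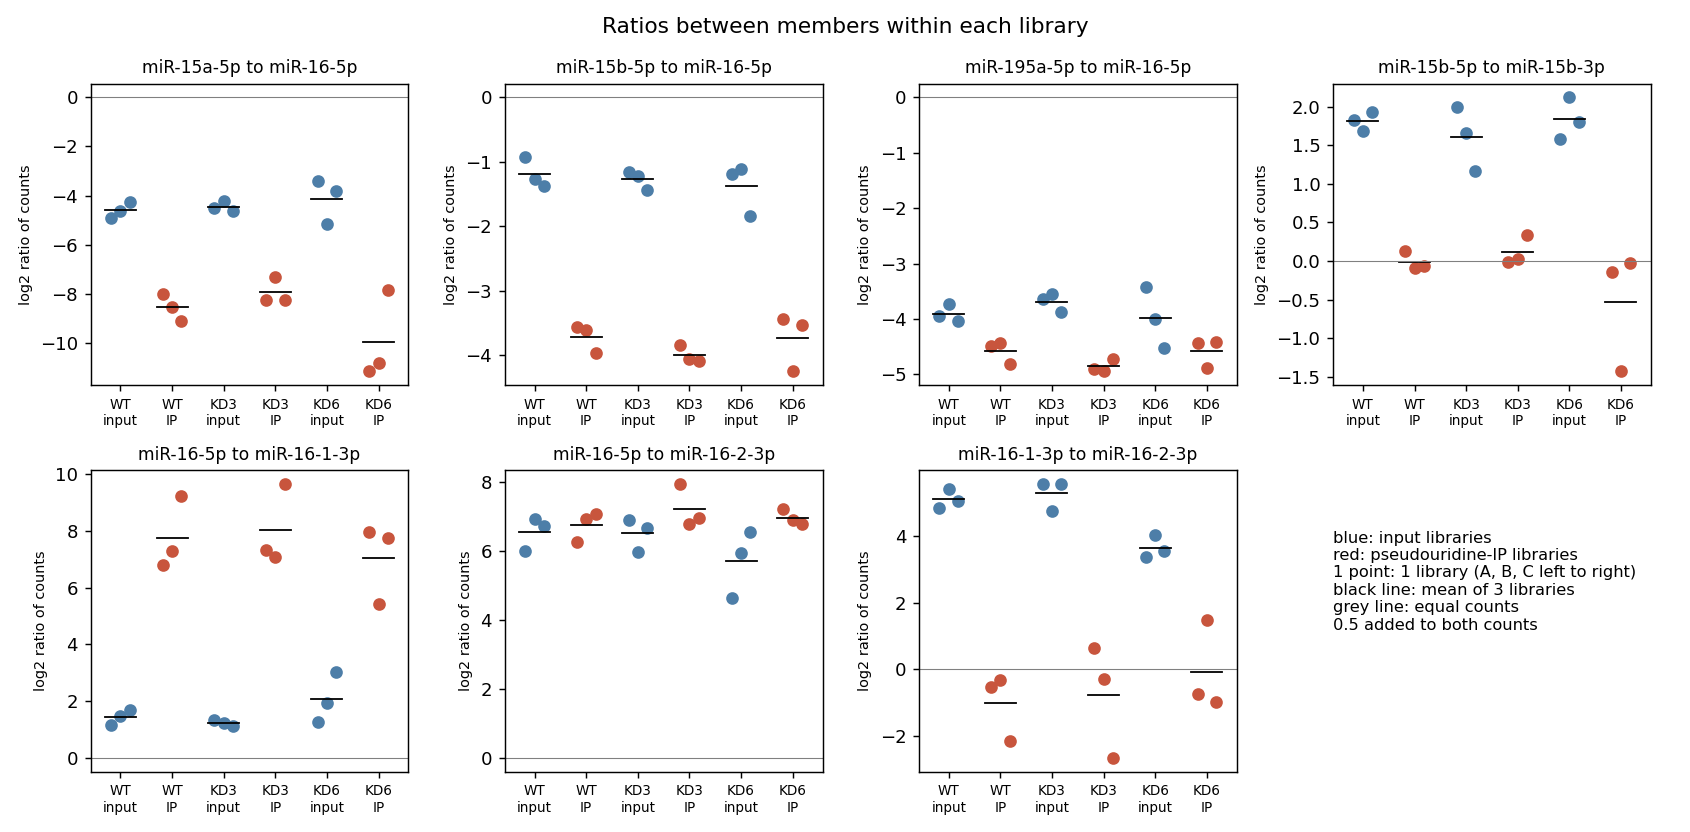
Log2 ratio of the counts of a pair of members within each library, with inputs in blue, IPs in red and the mean of 3 libraries as a black line. IP and input separate in all 3 conditions for miR-15a-5p and miR-15b-5p to miR-16-5p, miR-15b-5p to miR-15b-3p, miR-16-5p to miR-16-1-3p and miR-16-1-3p to miR-16-2-3p, with differences of -4.41, -2.54, -1.89, 6.03 and -5.30.

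Whether Pus1 knockdown changed the IP-to-input ratio was tested by the interaction of fraction and condition. These comparisons share their WT, KD3 or KD6 libraries, so their values are given side by side. No member passed in any of the 3 comparisons, in which edgeR called 0% of all miRNAs for KD3 against WT, 0% for KD6 against WT and 0.182% for KD6 against KD3. At an unadjusted p under 0.05 there were 0, 1 and 3 members and 16, 119 and 112 miRNAs in all, and DESeq2 called 0 members in each.

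For miR-16-5p the ratio differed by 0.40 ± 0.46 on the log2 scale between KD3 and WT (edgeR adjusted p = 1), by -0.81 ± 0.46 between KD6 and WT (adjusted p = 0.305) and by -1.22 ± 0.46 between KD6 and KD3 (adjusted p = 0.142). Without the shallow input A of KD6 the last 2 values were -1.29 (adjusted p = 0.087) and -1.65 (adjusted p = 0.0371), so the call on KD6 against KD3 depended on that library. It was also gained without IP C of KD6 (-1.48, adjusted p = 0.044).

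miR-16-2-3p gave 0.08 ± 0.60 in KD3 and -1.44 ± 0.64 in KD6 against WT (adjusted p = 0.211 for the latter), and -1.52 ± 0.65 between KD6 and KD3 (edgeR adjusted p = 0.19). miR-15a-5p gave 1.00 ± 0.88, -1.33 ± 0.98 and -2.33 ± 0.96, respectively (edgeR adjusted p = 1, 0.469 and 0.174), the last 2 with 0 counts in 2 of the 3 KD6 IPs. Without IP C of KD6 that group held only zeros, and the change passed in both comparisons with KD6 (adjusted p = 0.043 and 0.0194), but its fitted size is then no estimate. The other members lay between -0.64 and 1.07 in the 3 comparisons. At this depth and spread, then, no difference was detectable for members whose standard errors ranged from 0.34 to 0.98.

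Input levels were compared to ask whether knockdown changed the miRNAs themselves. No member passed in the 3 pairs of input groups, where edgeR called 0% of miRNAs for KD3 against WT, 3.09% for KD6 against WT and 4% for KD6 against KD3. At an unadjusted p under 0.05 there were 0, 0 and 3 members and 44, 78 and 97 of 550 miRNAs in all, and DESeq2 called 0 members in each. With the replicate letter as a block in a fit to the KD6 and KD3 inputs alone, 0 miRNAs passed, against 10 in that fit without the block. miR-15b-5p and miR-16-5p were lower in all KD3 inputs than in all WT inputs, where 30.7% of miRNAs did not overlap. Their log2 differences were -0.42 ± 0.29 and -0.34 ± 0.32 (edgeR adjusted p = 0.841 and 0.853). In this pair the deviations of same-letter libraries correlated (r = 0.20 to 0.60), but KD3 C with WT B, of different letters, reached 0.33. The labels do not say what the letters stand for. Fits with the letter as a block to the compared libraries alone were added after the data were seen. With the letter as a block in a fit to these 6 libraries alone, both passed (-0.41 with adjusted p = 0.00831 and -0.33 with adjusted p = 0.0318, of 82 miRNAs called), and without the block miR-15b-5p alone passed (adjusted p = 0.0105, of 75), but with the block in the fit to all 18 libraries neither did.

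The KD6 inputs disagreed among themselves. miR-15a-5p was 5.27-fold and miR-16-5p 2.08-fold higher in input C than in input B. Against KD3 the KD6 inputs differed by 1.21 ± 0.53 for miR-15a-5p (edgeR adjusted p = 0.224), 0.69 ± 0.33 for miR-16-5p (adjusted p = 0.281) and 1.12 ± 0.45 for miR-16-2-3p (adjusted p = 0.194). Without the shallow input A, miR-16-5p passed (0.98, adjusted p = 0.0377). miR-16-1-3p went the other way, with every KD6 input below every WT and KD3 input (-0.52 ± 0.37 and -0.41 ± 0.37, adjusted p = 0.572 and 0.63), where 24.5% and 24.2% of miRNAs did not overlap.

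The 8 related miRNAs share or nearly share the seed or come from the other arms of these hairpins, except miR-497b. Its seed is ACCACAG, and it comes from its own hairpin on the strand opposite Mir497. Of the 8, 5 passed the abundance filter, miR-497b among them. In each condition 4 of these were lower and 1 higher in the IP, where 68.9%, 70.5% and 71.3% of all miRNAs were called in WT, KD3 and KD6, and none passed in the other 6 comparisons. miR-322-5p, from a cluster on the X chromosome and with the same seed, fell by 3.31 ± 0.28 in WT, by 3.18 ± 0.28 in KD3 and by 4.43 ± 0.31 in KD6 on the log2 scale (edgeR adjusted p at most 2.08e-09). miR-503-5p, its neighbour with a near seed, fell by 0.76, 0.64 and 0.88 (edgeR adjusted p at most 0.0401). miR-497a-5p, from the hairpin beside mir-195a, had 71.5, 104 and 107 counts in the WT inputs and 0, 2 and 4 counts in the IPs, and 0 counts in all 3 KD6 IPs against 2, 75 and 110 in the inputs. miR-497b, read from the strand opposite Mir497, was also lower in each condition (edgeR adjusted p at most 0.0277). Of the members and related miRNAs tested that carry the seed AGCAGCA, only miR-16-5p was called higher in the IP with median-ratio factors, in WT and KD3. With upper-quartile factors miR-195a-5p was also called higher in WT (0.81, adjusted p = 0.0216) and KD3 (0.84, adjusted p = 0.0191), and miR-16-5p lost its WT call under 3 other scalings.

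miR-195a-3p, the other arm of mir-195a, was the related miRNA that rose, with log2 ratios of 0.72 ± 0.26, 0.68 ± 0.26 and 1.23 ± 0.29 (edgeR adjusted p = 0.018, 0.0264 and 0.000737). In WT it stood at 71.8, 79.6 and 67.8 CPM in the inputs and 101, 123 and 137 CPM in the IPs. It exceeded miR-195a-5p throughout: the 5p arm made up 23.7% ± 2.40 (SD, n = 3) of both in WT input and 20.3% ± 3.00 in WT IP. miR-15a-3p had 4 to 15 counts in the WT and KD3 inputs and 0 in all 9 IPs. miR-195b and miR-497a-3p had at most 1 count in any library.

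The profile of each member over the 18 libraries was compared with those of 149 miRNAs outside the family with a mean of at least 100 CPM, by the root mean square difference of centred log2 CPM. Closest to miR-16-5p were miR-20a-5p (0.30, Pearson's r = 0.90), miR-191-5p (0.42) and miR-125b-5p (0.42). miR-20a-5p, a member of the miR-17 family, was also plotted singly by the study over WT and both knockdown times on these libraries. Closest to miR-15b-5p were miR-23a-3p (0.38), miR-103-3p (0.41) and miR-107-3p (0.42), and closest to miR-15a-5p were miR-31-5p (0.67), miR-22-3p (0.74) and miR-152-3p (0.78). These 3 members had no miRNA in common among their nearest.

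For miR-16-1-3p the nearest were miR-30e-5p (0.55, r = 0.98), miR-199b-5p (0.61) and miR-30a-5p (0.64). miR-195a-5p was nearest to miR-125b-5p (0.28), which was also among the nearest of miR-16-5p, miR-25-3p (0.33) and miR-298-5p (0.40). miR-25-3p was also the nearest for miR-15b-3p (0.24) and miR-16-2-3p (0.51). All these likenesses are over the same 18 libraries, which differ most between IP and input, and are given as a description.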

How the data were processed

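The authors removed the 3′ adapter and ran SeqImp (version not given in the sources used here) with its default mouse miRNA settings on mm10, Ensembl 89 and miRBase 21. They deposited estimated counts per mature miRNA and hairpin, with reads that match several loci divided among them, and tested them with DESeq2. A second deposited set, distinct sequences per miRNA, was not used in a test.

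Here the estimated counts were summed over the hairpins of each mature miRNA, rounded (47.0% of non-zero values were not whole) and tested in R 4.3.3 with edgeR 4.0.16 (median-ratio factors, filterByExpr, glmQLFit and glmQLFTest, 6 group means over 18 libraries, no block, 550 miRNAs). An adjusted p under 0.05 was the threshold. Standard errors were derived from the log2 ratio and the F statistic (ratio over root F). The row of total mapped reads was kept out of library sizes. Ratios within a library used log2 of counts plus 0.5, in SciPy 1.17.1 and NumPy. In simulated data for WT IP against input (514 miRNAs), edgeR called 85 of 96 miRNAs changed 4-fold, 20 of 93 changed 2-fold and 2 of 325 unchanged. All simulated miRNAs had the same dispersion, with balanced rises and falls in the WT IP alone, so the dependence on scaling was not tested by it. Same-letter libraries deviated together in every pair (r over 189 miRNAs) between KD3 and WT inputs (0.20 to 0.60) and between KD6 and KD3 inputs (0.23 to 0.33). Between KD6 and WT inputs their r ran from 0.039 to 0.42. Between IP and input it ran from -0.15 to 0.016 in WT, -0.068 to 0.38 in KD3 and -0.22 to 0.53 in KD6. Libraries of different letters reached 0.33 between KD3 and WT inputs (KD3 C with WT B).

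All 7 members, the 8 related miRNAs and the 3 nearest miRNAs per member were named. Members and lists were chosen with earlier results of these data known. Alternatives were other scalings, filters, tests, row choices, a replicate block and leaving out each library.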

Additional observations from a re-analysis of the deposited data

How the results depend on the processing

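The calls of miR-15a-5p, miR-15b-5p and miR-16-1-3p as lower in the IP held under every scaling, filter and left-out library in all 3 conditions, except that miR-15b-5p missed a test beyond 2-fold in WT and KD3. That test called 2 members in WT. Scaling moved the other members. Upper-quartile factors gave 7 members past the threshold in WT, 7 in KD3 and 5 in KD6 (miR-195a-5p reversed to 0.37 in KD6). TMM factors reversed the log2 ratio of miR-15b-3p in KD3 (-0.055) and of miR-16-5p in KD6 (-0.019). Library sizes without factors gave 5 members in KD6, with reversed ratios for miR-15b-3p (-0.46) and miR-16-5p (-0.52). Total mapped reads gave 6 members in KD6, with reversed ratios for miR-15b-3p (-0.78) and miR-16-5p (-0.85), reversed miR-15b-3p (-0.41) and miR-195a-5p (-0.22) in KD3 and the change of miR-16-2-3p between KD3 and WT (-0.20), and gave 1 member, miR-16-2-3p, for KD6 against WT IP ratios. The cause was not tested.

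Leaving out 1 library at a time gave 3 to 5 members in KD6, 0 to 1 for the IP ratios of KD6 against WT, 0 to 2 for those of KD6 against KD3 and 0 to 1 for the inputs of KD6 against KD3. miR-16-2-3p passed in WT without IP A of KD3 or of KD6, and in KD3 without input B or IP A of KD3, or IP A or C of KD6. Ranges that crossed 0 were, in KD3, -0.14 to 0.40 for miR-15b-3p and -0.095 to 0.66 for miR-195a-5p, and, in KD6, -0.21 to 0.72 for miR-15b-3p, -0.47 to 0.92 for miR-16-5p and -0.65 to 0.19 for miR-195a-5p. The change of miR-16-2-3p between KD3 and WT ranged from -0.48 to 0.47. That of miR-15a-5p between KD6 and WT ranged from -7.75 (an IP group of zeros only) to 0.12, and its input difference between KD6 and KD3 from -0.25 to 1.74. Of 24 member values not given singly, 14 changed sign under some alternative and none was called.

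Without the abundance filter 2 members, miR-15a-5p and miR-16-5p, passed for the IP ratios of KD6 against KD3, and 1, miR-15a-5p, for their inputs. For the inputs of KD3 against WT, 1 member passed with only the libraries compared and 2 with the replicate block added. The replicate block changed no other call of a member (4, 4 and 3 in WT, KD3 and KD6). All 7 ratios within libraries kept their direction and their side of the threshold. With total mapped reads as the denominator the summed share of the members was 0.0756% in WT IP and 0.0544% in KD3 input, beyond 1 SD from the values given.

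Counts over all miRNAs for IP against input stayed within 1.5 times of 379 in WT, 388 in KD3 and 392 in KD6, the lowest being 268, 259 and 271. Those of the knockdown comparisons moved further in proportion. For the IP ratios of KD6 against WT, 0 became 23 with DESeq2, 14 without the filter, 51 on total mapped reads and up to 57 with a library left out (IP C of KD6). For KD6 against KD3, 1 became 13, 14 and 8, 12 without factors and 0 to 63 with a library left out. For KD3 against WT, 1 was called without the filter. For the inputs of KD3 against WT, 0 became 8 with DESeq2, 5 without the filter, and 75 with only the libraries compared (82 with the block). For KD6 against WT, 17 became 27 with DESeq2, 9 at an adjusted p under 0.01 and 6 to 31 with a library left out. For KD6 against KD3, 22 became 7 at that threshold, 12 without factors, 10 on total mapped reads, 10 with only the libraries compared (0 with the block) and 3 to 50 with a library left out. The test beyond 2-fold gave 0 for both.

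Depth limits the values of KD6 input A and the IP levels of miR-15a-5p, miR-16-1-3p and miR-16-2-3p, which rest on few counts. Without a mock IP, antibody recovery and background recovery cannot be told apart.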
